A study of Mus musculus with 6 samples.

Results

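Antibody variable segments are the germline gene pieces from which the antigen-binding end of each antibody chain is built. The rows examined here are those of the deposited tables whose Ensembl identifier carries a symbol beginning with Ighv (heavy chain), Igkv (kappa light chain) or Iglv (lambda light chain). There were 147 of them among 29872 genes: 72 heavy, 72 kappa and 3 lambda segments. The reference annotation, GENCODE M21, lists 348 such segments, and the 201 without a row were not analysed here. No gene in the tables was at 0 in all 6 libraries, so a row exists for a segment only because at least 1 library held a read of it.

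Total RNA of whole hippocampus from C57BL/6 J mice was sequenced. The knockdown group (shHepaCAM, 3 libraries) had received adeno-associated virus bilaterally in CA1, with a short hairpin RNA that targets Hepacam, the gene of an astrocyte adhesion molecule. The control group (shControl, 3 libraries) carries the genotype label WT. The labels do not say whether control mice received a vector, do not give the ages of the mice or the promoter of the hairpin, and do not say that each library came from its own mouse, so every p-value here reflects variation among libraries that could be technical. The question was how hippocampal gene expression differs after hepaCAM knockdown. Hepacam itself ran from 33.4 to 37.3 RPKM (reads adjusted for gene length and depth) in control and from 20.9 to 24.4 RPKM in knockdown libraries, without overlap. As log2(RPKM + 1) it fell by 0.63 (SE 0.07, limma adjusted p = 0.00924).

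Each developing B cell joins a variable segment of the heavy chain locus to short diversity and joining pieces, and a variable segment of a light chain locus, kappa or lambda, to a joining piece. The finished chains pair in the cell and are passed on to its daughters, so that one clone of B cells or of the plasma cells derived from it uses a single heavy and a single light segment. Plasma cells, which secrete antibody, hold far more of these transcripts than resting B cells. In healthy brain tissue such cells are scarce and lie mainly in the meninges.

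The segments that led a knockdown library are shown first, because the results turn on which segment led and on how well its reads can be told from those of its relatives. Each sequence is the last 160 bases of the segment's reference transcript in GENCODE M21 (GRCm38), 5′ to 3′. Capitals mark the codons for tyrosine, tyrosine and cysteine that close the third framework region. The bases after them are the germline start of the third complementarity-determining region, where the joining pieces are added. The heavy and kappa leaders of shHepaCAM replicate 1 come first, then those of replicate 2, those of replicate 3, and Ighv2-9, a heavy segment with reads in all 3 knockdown libraries.
Ighv1-63: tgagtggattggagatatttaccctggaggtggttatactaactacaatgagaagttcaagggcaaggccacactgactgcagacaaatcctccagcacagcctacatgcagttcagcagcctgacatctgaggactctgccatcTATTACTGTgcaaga
Igkv4-74: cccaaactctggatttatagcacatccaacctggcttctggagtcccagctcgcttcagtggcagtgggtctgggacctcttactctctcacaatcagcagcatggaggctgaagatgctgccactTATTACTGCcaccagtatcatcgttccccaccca
Ighv3-6: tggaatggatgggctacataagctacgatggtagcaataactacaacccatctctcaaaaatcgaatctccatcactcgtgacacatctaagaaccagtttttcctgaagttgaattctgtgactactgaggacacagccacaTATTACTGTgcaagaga
Igkv4-53: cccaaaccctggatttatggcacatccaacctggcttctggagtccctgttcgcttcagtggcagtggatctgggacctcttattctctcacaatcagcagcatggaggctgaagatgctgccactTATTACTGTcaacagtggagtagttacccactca
Ighv1-26: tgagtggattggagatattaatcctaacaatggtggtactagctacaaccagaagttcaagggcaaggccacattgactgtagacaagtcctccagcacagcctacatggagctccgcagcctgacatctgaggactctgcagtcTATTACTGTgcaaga
Igkv19-93: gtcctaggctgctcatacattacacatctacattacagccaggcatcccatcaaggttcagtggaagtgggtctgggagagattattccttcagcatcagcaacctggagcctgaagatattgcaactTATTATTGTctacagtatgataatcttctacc
Ighv2-9: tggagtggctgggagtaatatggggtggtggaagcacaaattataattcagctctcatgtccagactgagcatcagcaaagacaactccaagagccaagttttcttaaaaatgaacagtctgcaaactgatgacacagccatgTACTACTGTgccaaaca

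Igkv19-93 stood apart from all other annotated kappa segments in sequence. Its closest relative, Igkv10-94, matched 79.3% of its bases, and none of its stretches of 50 bases occurred in another annotated variable segment. The other leaders had closer relatives. Ighv1-63 matched Ighv1-73 at 97.4% of bases and Igkv4-53 matched Igkv4-60 at 97.2%, and neither relative had a row. Ighv1-26 matched Ighv1-18 at 96.9%. At least 90% was reached by 20 annotated segments for Igkv4-74, 19 for Ighv1-26, 14 for Igkv4-53 and 4 for Ighv1-63. For Ighv1-26, 49.0% of the 50-base stretches occurred in another segment. The same share was 48.1% for Igkv4-74, 39.6% for Igkv4-53, 34.1% for Ighv1-63, 20.8% for Ighv2-9 and 3.32% for Ighv3-6. How reads that fit several places were treated is not given in the sources used, and expressed antibody genes carry mutations, so a read given to Ighv1-26, Ighv1-63, Igkv4-74 or Igkv4-53 may have come from a close relative. Between leaders of the same family, Igkv4-74 and Igkv4-53 matched at 88.6% of bases and shared 1 stretch of 50 bases, and Ighv1-63 and Ighv1-26 matched at 85.5% and shared none. Leaders of different families in the same chain matched at 58.9% to 65.6%.

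Transcripts of variable segments were nearly absent from control hippocampus and present in every knockdown library. Between 15 and 21 reads in all fell on the 147 segments in a control library, against 3927, 8495 and 17336 reads in shHepaCAM replicates 1, 2 and 3. Summed over the 3 chains this was 0.877, 0.98 and 1.41 RPM (reads-per-million of library depth) in shControl replicates 1, 2 and 3, and 248, 526 and 1058 RPM in shHepaCAM replicates 1, 2 and 3. The groups did not overlap, and the 3 knockdown libraries differed from one another by more than the controls did. On the log2(RPM + 1) scale the mean was 1.05 ± 0.19 (SD, n = 3) in control and 9.02 ± 1.04 (SD, n = 3) in knockdown libraries, a difference of 7.96. By exact two-sided permutation this gave p = 0.1, which is the lowest value possible with 3 libraries a group. Pooled over the libraries of a group the level was 573-fold higher (counting interval 438 to 766, at the 95% level), and 362-fold without shHepaCAM replicate 3. In whole tissue, more cells of a type and more RNA per cell cannot be told apart.

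All 3 chains were higher in every knockdown than in every control library, though no such test can reach 0.05 at this group size. Heavy segments held 7, 1 and 9 reads in the control libraries and 901, 2551 and 3992 reads in shHepaCAM replicates 1, 2 and 3, which is 0.357 ± 0.277 against 153 ± 93.4 RPM (SD, n = 3 each; exact permutation p = 0.1). Kappa segments held 5, 16 and 10 reads in the control libraries and 2792, 5802 and 13253 in the knockdown libraries, or 0.629 ± 0.317 against 448 ± 325 RPM (SD, n = 3 each; exact permutation p = 0.1). Both chains were lowest in shHepaCAM replicate 1 and highest in replicate 3. Lambda segments followed the opposite order, with 234, 142 and 91 reads in shHepaCAM replicates 1, 2 and 3 against 3, 0 and 2 in control (exact permutation p = 0.1). Their mean was 9.72 ± 4.69 against 0.103 ± 0.0917 RPM (SD, n = 3 each). The plot of summed reads by chain shows the gap between the groups.

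**Figure D1:**
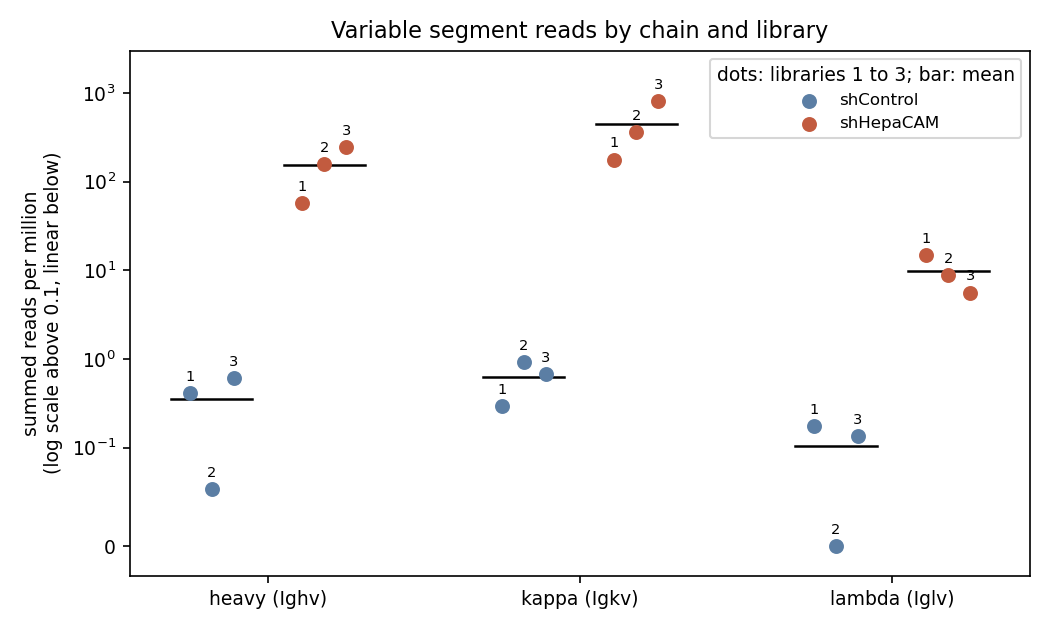
Summed reads-per-million (RPM) of heavy, kappa and lambda variable segments (vertical axis, logarithmic above 0.1 and linear below) in each library; dots are libraries, numbered by replicate, and bars are group means (n = 3). In each chain all 3 shHepaCAM libraries lie above all 3 shControl libraries, and shHepaCAM 3 is highest for heavy and kappa and lowest of the knockdown libraries for lambda.

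Few segments had any read in control hippocampus. A read was found for 7, 9 and 13 of the 147 segments in shControl replicates 1, 2 and 3, and for 118, 89 and 54 segments in shHepaCAM replicates 1, 2 and 3. The means were 9.67 ± 3.06 and 87.0 ± 32.0 segments (SD, n = 3 each; exact two-sided permutation p = 0.1). With at least 3 reads asked of a segment, the mean difference was 51.3 segments, and with at least 10 reads it was 25.3, since no control library had a segment with 10 reads. Of the 147 segments, 122 had 0 reads in all 3 controls. In a control library a count of 0 allows up to 3 reads, between 0.173 and 0.201 RPM; these floors and the intervals given here cover counting error only.

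The control reads were scattered. The most that 1 segment held in a control library was 7, for Igkv10-96 in shControl replicate 2. Igkv5-39 had 4 reads in replicate 1. Counts of 3 belonged to Iglv1 in replicate 1, Igkv4-74 in replicate 2, and Ighv9-1 and Igkv9-120 in replicate 3. Iglv1 was the only one of these 6 segments with reads in more than 1 control library. Conversely, Igkv4-70, Igkv4-90 and Igkv8-28 had 1 or 2 reads in a control and 0 in the knockdown libraries; they were named after their values were seen.

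Among the knockdown libraries, those with more segment reads had fewer segments. In shHepaCAM replicates 1, 2 and 3, heavy segments with a read numbered 57, 45 and 20 of 72, and kappa segments 58, 42 and 31 of 72. Drawing 901 heavy reads from each library, the total of the smallest, gave an expected 57, 31.0 and 10.1 segments. Drawing 2792 kappa reads gave 58, 35.3 and 16.8. The order of the libraries was therefore the same at equal numbers of reads. Replicate 1 was bound to stay first, by a wider gap, since drawing fewer reads can only lower the counts of replicates 2 and 3. The draws include the reads of the leading segment, which were 80.8% of heavy and 88.8% of kappa reads in replicate 3. Families, groups of segments with related sequence, thinned out less: 12, 10 and 7 of the 13 heavy families and 15, 14 and 14 of the 18 kappa families with a row had a read. Of the 4 annotated pseudogenes with a row, Ighv1-2, Ighv1-27, Igkv4-77 and Igkv5-40-1, none had more than 6 reads over the knockdown libraries.

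**Figure D2:**
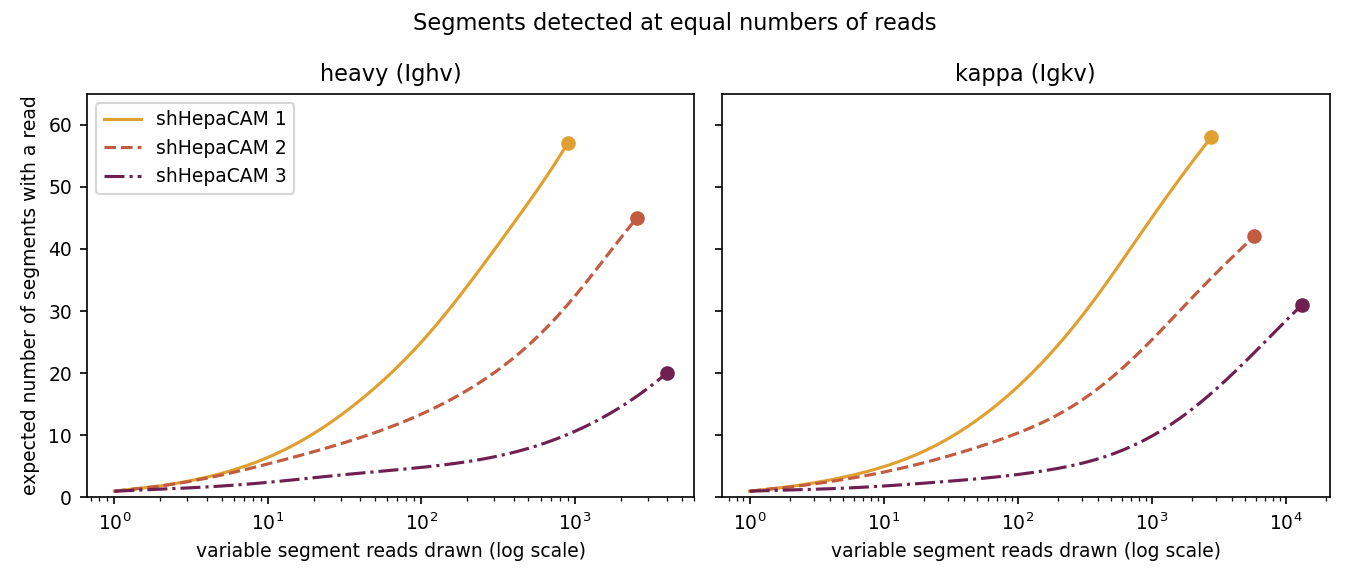
Expected number of heavy (left) or kappa (right) segments with a read when the number of reads on the horizontal axis (log scale) is drawn from each shHepaCAM library; the dot ends each line at the full count. At 901 heavy reads the lines stand at 57, 31.0 and 10.1 segments for shHepaCAM 1, 2 and 3.

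Different segments led the 3 knockdown libraries. In shHepaCAM replicate 3, Igkv19-93 held 11766 of 13253 kappa reads, or 88.8% (exact binomial interval 88.2% to 89.3%, Clopper-Pearson). The same segment had 17 reads in replicate 2, 4 in replicate 1 and 0 in each control library. With 3 reads taken as the limit for the pooled controls, Igkv19-93 was at least 4012-fold higher over the knockdown libraries. That bound was 10.8-fold without shHepaCAM replicate 3, and 2621-fold and 2602-fold without shControl replicates 1 and 2, where the pooled control depth is smaller. Its limma adjusted p was 0.291 (log2 change 4.56, SE 2.39).

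In shHepaCAM replicate 2, Igkv4-53 led with 3031 of 5802 kappa reads, or 52.2% (interval 50.9% to 53.5%), followed by Igkv17-127 with 1221 and Igkv10-96 with 483 reads. Igkv17-127 had 112 reads in replicate 1 and 0 in replicate 3. In shHepaCAM replicate 1, Igkv4-74 led with 1279 of 2792 kappa reads, or 45.8% (interval 43.9% to 47.7%), followed by Igkv9-120 with 554 and Igkv3-4 with 155. Igkv4-74 had 0 reads in the other 2 knockdown libraries. The kappa leader of each knockdown library was thus a minor or unread segment in at least 1 of the others.

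Heavy segments showed the same turnover. In shHepaCAM replicate 3, Ighv1-26 held 3224 of 3992 heavy reads, or 80.8% (interval 79.5% to 82.0%), against 195 reads in replicate 2, 38 in replicate 1 and 1 over the control libraries. In shHepaCAM replicate 2, Ighv3-6 led with 770 of 2551 heavy reads, or 30.2% (interval 28.4% to 32.0%), ahead of Ighv2-9 with 530 and Ighv5-9 with 373. Ighv3-6 had 6 reads in replicate 1, 0 in replicate 3 and 1 over the controls. In shHepaCAM replicate 1, Ighv1-63 led with 320 of 901 heavy reads, or 35.5% (interval 32.4% to 38.7%), ahead of Ighv5-12 with 80 and Ighv1-19 with 60. Ighv1-63 had 1 read in replicate 2 and 0 in replicate 3. Ighv5-12 was read in replicate 1 alone, and Ighv1-19 had 1 read outside it. The stacked shares show that the leader takes most of both chains in replicate 3 and that no heavy segment reaches 40% in the other libraries.

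**Figure D3:**
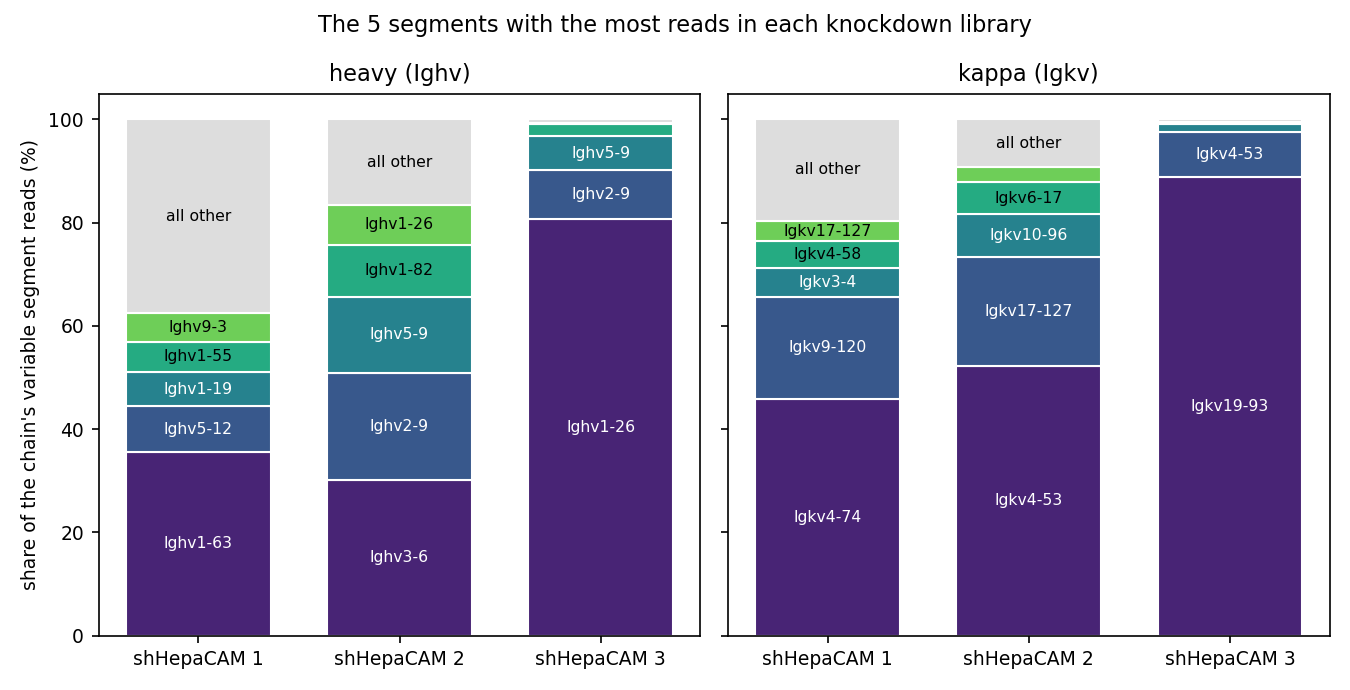
Share of heavy (left) and kappa (right) variable segment reads (vertical axis, percent) held by the 5 segments with the most reads in each shHepaCAM library, with all other segments in grey. Ighv1-26 and Igkv19-93 hold 80.8% and 88.8% of their chains in shHepaCAM 3, while the leaders of the other libraries hold 30.2% to 52.2%.

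The effective number of segments, the inverse Simpson index, which equals the number of equally used segments that would give the same evenness, was 6.54, 5.70 and 1.5 for heavy and 3.86, 3.03 and 1.26 for kappa segments in shHepaCAM replicates 1, 2 and 3. The libraries had the same order in both chains. Outside the leading segment the libraries were closer together. Kappa reads other than those of the leader came to 95.7, 172 and 90.8 RPM in replicates 1, 2 and 3, and heavy reads other than those of the leader to 36.7, 110 and 46.9. Without Igkv19-93 and Ighv1-26, replicate 3 therefore lay below replicate 2 in both chains. The leading share itself could not be set against control in a meaningful way, because a control leader rests on 1 to 7 reads. It was 54.0% ± 39.9 in control and 48.8% ± 27.8 in knockdown libraries for heavy segments (SD, n = 3 each; exact two-sided permutation p = 0.9), and 51.2% ± 25.8 against 62.3% ± 23.2 for kappa (SD, n = 3 each; exact two-sided permutation p = 0.5). The sign of the heavy difference, and of the kappa difference, turned when single libraries were left out.

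A set of 22 segments had at least 100 reads over the knockdown libraries: 8 heavy, 12 kappa and 2 lambda. No segment had 100 over the controls. The smallest of the 22, Ighv1-9, had 123 knockdown reads, and the largest outside the set, Ighv1-69, had 96. In 12 of the 22, over 90% of the knockdown reads came from 1 library. The libraries with the most reads of a segment were replicate 1 for 6, replicate 2 for 13 and replicate 3 for 3 of them. Besides the leaders, Igkv9-120, Igkv3-4 and Igkv4-58 were mainly in replicate 1, with 554, 155 and 144 reads there. Igkv6-17, Ighv1-82, Igkv10-96, Igkv8-30, Igkv3-2 and Ighv1-55 had most of their reads in replicate 2, from 365 of 367 for Igkv6-17 to 111 of 164 for Ighv1-55.

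**Figure D4:**
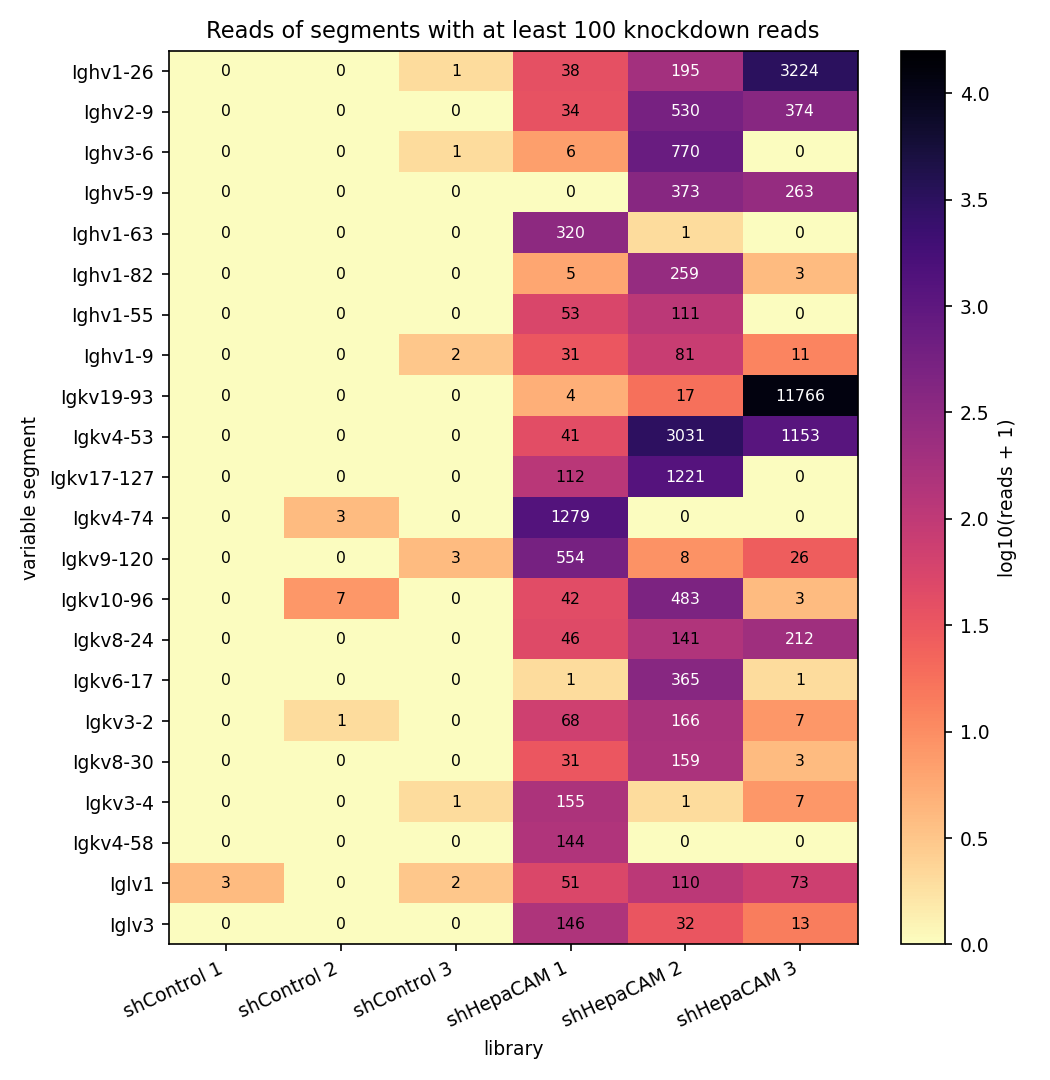
Reads (numbers in the cells; colour, log10 of reads + 1) of the 22 segments with at least 100 reads over the knockdown libraries, in rows by chain, against the 6 libraries in columns. The control columns hold 0 to 7 reads per cell, and the darkest cell differs between the 3 shHepaCAM columns.

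Only 7 segments had at least 10 reads in every knockdown library: Ighv1-26, Ighv2-9, Ighv1-9, Igkv4-53, Igkv8-24, Iglv1 and Iglv3. Another 11 reached 10 reads in 2 libraries and 33 in a single one. Replicate 1 had 35 segments at that level, replicate 2 had 29 and replicate 3 had 12. Replicates 1 and 2 shared 15 of them, 42.9% and 51.7% of their sets. Replicates 2 and 3 shared 9, 31.0% and 75.0%, and replicates 1 and 3 shared 8, 22.9% and 66.7%. By reads the overlap was smaller. The share of reads that libraries distributed alike, summed over segments as the smaller of the shares of all variable segment reads, was 18% for replicates 1 and 2, 15.1% for replicates 2 and 3 and 5.47% for replicates 1 and 3.

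In limma, a linear model fitted to every gene on log2(RPKM + 1), 6 of the 147 segments were called higher and 0 lower at an adjusted p of 0.05 over all genes tested. Only 32 segments passed the filter of a mean of 1 RPKM, and 115 were not tested. Over all 13864 genes tested, 6.07% were called, 4.23% higher and 1.84% lower. The 32 segments reached the filter through their knockdown libraries, so the count among them is given as a description. Iglv1, a lambda segment, had 51 reads in shHepaCAM replicate 1, 110 in replicate 2 and 73 in replicate 3, and 3, 0 and 2 in the control libraries. At 0.264 ± 0.235 against 12.4 ± 4.67 RPKM (SD, n = 3 each), it rose by 3.36 (SE 0.26, adjusted p = 0.00314). Igkv8-24 had 46, 141 and 212 reads in the knockdown libraries and 0 in the controls, and rose by 4.33 (SE 0.45, adjusted p = 0.00596). These 2 segments were called in each of 15 alternatives. Reads of Iglv1 may belong in part to Iglv2, which matches it at 96.7% of bases, whereas no 50-base stretch of Igkv8-24 occurred in another segment.

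The other calls rested on more uneven libraries. Ighv2-9 and Igkv4-53 rose by 5.11 and 6.53 (limma adjusted p = 0.0238 and 0.039), and both kept the call with 1 library left out only where that was shHepaCAM replicate 1; otherwise adjusted p was 0.0601 to 0.0957 for Ighv2-9 and 0.0822 to 0.125 for Igkv4-53. Ighv1-9 had 31 reads in shHepaCAM replicate 1, 81 in replicate 2, 11 in replicate 3 and 2 over the controls, and rose by 2.58 (SE 0.53, limma adjusted p = 0.0395). It kept the call without shHepaCAM replicate 3 (0.0185) and lost it without any other library (0.0545 to 0.129). Iglv3 had 146, 32 and 13 reads and 0 in the controls, and rose by 2.97 (SE 0.67, limma adjusted p = 0.0484). It kept the call without shHepaCAM replicate 1 or 3 (0.0179 and 0.0326) and lost it without any control library or shHepaCAM replicate 2 (0.106 to 0.146). Among the leading and second segments, Ighv1-26 (adjusted p = 0.0548 in limma), Igkv9-120 (0.165), Igkv17-127 (0.195) and Igkv19-93 (0.291) did not pass. Nor did Ighv3-6 (0.373), Ighv1-63 (0.426), Ighv5-12 (0.456) and Igkv4-74 (0.485). In that order their log2 changes were 5.67, 3.24, 4.03, 4.56, 2.64, 2.04, 1.31 and 2.39, with SE of 0.98 to 2.39. For each of them most knockdown reads lay in 1 library.

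Without regard to the filter, 31 of the 147 segments (21.1%) were higher in every knockdown library than in every control library, against 13.7% of all 29872 genes, and 0 were lower. Reads in all 3 knockdown libraries and in no control were found for 23 segments (15.6%), against 0.526% of all genes. These 23 were 10 heavy, 12 kappa and 1 lambda segments. Of the 147 segments, 122 had no read in any control, so they have a row only through a knockdown library. The 201 annotated segments without a row are not in these shares, which are given as a description.

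Kappa reads outnumbered heavy reads in all 3 knockdown libraries. Kappa reads per heavy read were 3.10, 2.27 and 3.32 in shHepaCAM replicates 1, 2 and 3. In shControl replicates 1, 2 and 3 the ratios were 0.714, 16.0 and 1.11, resting on 17 heavy and 31 kappa reads over the 3 libraries. The log2 ratio was 1.22 ± 2.43 in control and 1.52 ± 0.29 in knockdown libraries (SD, n = 3 each; exact two-sided permutation p = 1), and the control reads are too few to show a difference at this depth. Lambda segments made up 7.73% of light chain variable reads in shHepaCAM replicate 1 (Clopper-Pearson interval 6.81% to 8.74%), 2.39% in replicate 2 (2.02% to 2.81%) and 0.682% in replicate 3 (0.549% to 0.837%). The lambda share was smaller in libraries with more kappa reads. Iglv3 led the lambda reads of replicate 1, with 146 of 234, and Iglv1 those of replicate 2, with 110 of 142, and replicate 3, with 73 of 91.

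RNA from whole tissue does not tie a heavy to a light chain of the same cell, so pairing can only be described by setting the ranked segments of a library side by side. The leading kappa segment had 4.0, 3.94 and 3.65 reads per read of the leading heavy segment in shHepaCAM replicates 1, 2 and 3, for Igkv4-74 with Ighv1-63, Igkv4-53 with Ighv3-6 and Igkv19-93 with Ighv1-26. The reads of the leaders ran from 1279 to 11766 for kappa and from 320 to 3224 for heavy. A ratio within a library cancels its amount of segment RNA, so it varies less than these reads where both chains change together. The kappa to heavy ratio over all segments, 2.27 to 3.32, also varied less than these reads, though more than the ratio of the leaders. The ratio of the leaders does not tie them to the same cells. Igkv4-53 and Ighv2-9 were second in their chains in replicate 3, at 8.70% of kappa and 9.37% of heavy reads, and first and second in replicate 2, at 52.2% and 20.8%. In replicate 1 they held 1.47% and 3.77%. Ighv5-9 followed Ighv2-9 in both replicates 2 and 3, with 373 and 263 reads, and had 0 reads in replicate 1. Which heavy and light segments belonged to the same cells was not tested.

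**Figure D5:**
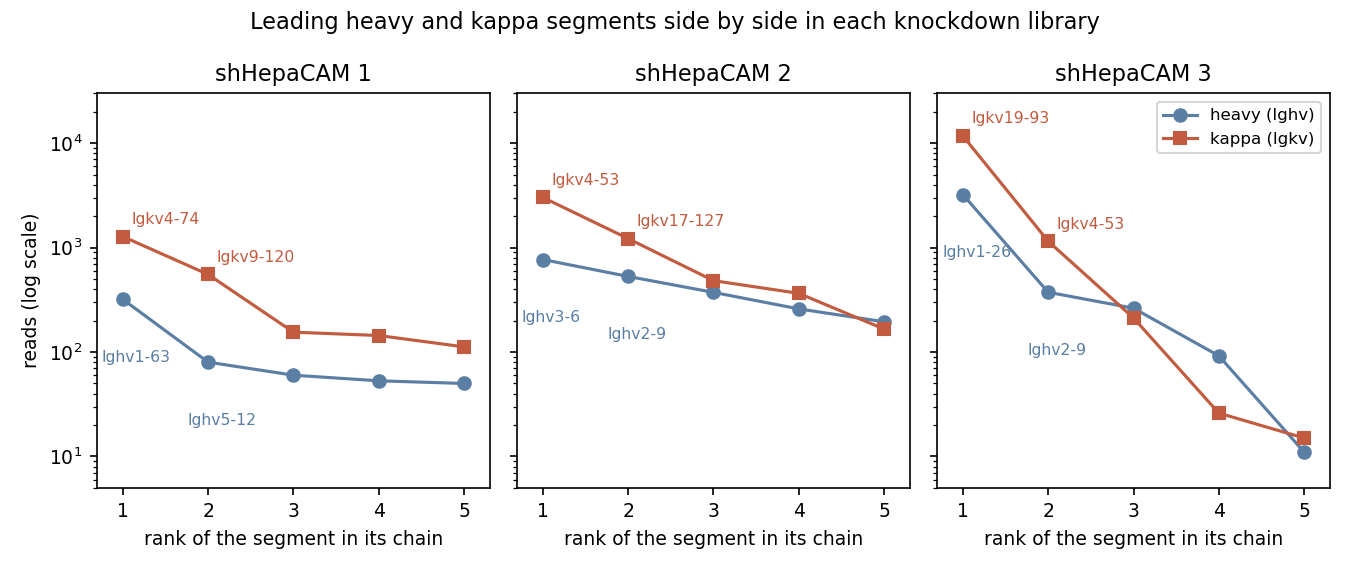
Reads (vertical axis, log scale) of the 5 leading heavy and 5 leading kappa segments against their rank within the chain (horizontal axis) in each shHepaCAM library; the first 2 of each chain are named. The first kappa segment lies 3.65 to 4.0 times above the first heavy segment, and in shHepaCAM 3 both chains drop steeply after it.

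Families followed the leaders. Family Igkv4, the largest kappa family with 21 rows, held 54.4%, 52.8% and 8.83% of kappa reads in shHepaCAM replicates 1, 2 and 3, and family Igkv19, with a single row, 0.143%, 0.293% and 88.8%. Family Ighv1, with 38 rows, held 71.8%, 30.3% and 83.9% of heavy reads. Along the loci, split at the middle of the annotated order of segments (order from GENCODE M21, an earlier build than that of the files), the segments nearer the constant region held 31.2%, 72.1% and 16.3% of heavy reads and 23.6%, 68.6% and 10.9% of kappa reads. By reads, both chains were weighted to the nearer segments in replicate 2 and to the farther segments in the other 2 libraries. The segments with a read did not follow this pattern. In replicates 1, 2 and 3, 27, 21 and 7 of 36 nearer and 30, 24 and 13 of 36 farther heavy segments had a read. For kappa these were 35, 21 and 21 of 41 nearer and 23, 21 and 10 of 31 farther segments.

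Variable and constant parts of the chains can be compared per length. Summed Igkv RPKM was 0.96, 1.06 and 1.28 times the RPKM of Igkc, the kappa constant region, in shHepaCAM replicates 1, 2 and 3. Summed Ighv RPKM was 0.746, 1.21 and 0.794 times that of the heavy constant regions together. RPKM divides by the whole exon length of each gene, so this heavy ratio can also shift with the mix of constant regions. In control the heavy ratio was 0.0951, 0.0162 and 0.255, with 7, 1 and 9 variable reads beside 340, 248 and 165 reads of Ighm, the constant region of IgM. The kappa ratio in shControl replicates 1, 2 and 3 was 0.403, 0.568 and 0.480. It rested on 5, 16 and 10 variable reads beside 19, 41 and 30 reads of Igkc. Among the 13 listed constant region and joining chain genes, 8 were tested and all 8 were called higher in limma: Ighm, Ighg2b, Ighg2c, Igha, Igkc, Iglc1, Iglc2 and Jchain. Over all genes tested, 4.23% were called higher. Among these 8, only Ighm and Igkc averaged at least 1 RPKM in control. The others passed the filter through their knockdown libraries, so the count is given as a description. The heavy constant region with the highest RPKM was Ighg2c in replicates 1 and 3, at 51.2% and 80.0% of heavy constant RPKM, and Ighm in replicate 2, at 38.5%. By reads, Igha came first in replicate 2, with 4449 (37.8%) against 4134 (35.1%) for Ighm, so the order there depends on the measure.

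Markers of antibody-forming and other blood-derived cells were read beside these segments. Summed RPKM of 10 B cell markers ran from 2.75 to 3.22 in control and from 5.38 to 10.5 in knockdown libraries, but only 2, Cd79a and Blnk, were tested and 0 were called in limma (adjusted p = 0.0594 and 0.198). None of the 10 was at 0 in all controls. Ms4a1, the B cell antigen CD20, had 0 RPKM in shControl replicates 1 and 2 but 0.0434 in replicate 3, above the lowest of the knockdown libraries, which ran from 0.0300 to 0.102 RPKM. Bank1, a B cell scaffold protein, lay the other way, at 0.188 to 0.234 RPKM in control and 0.110 to 0.141 RPKM in knockdown libraries. Both were named after their values were seen, and neither reached the filter. The 11 plasma cell markers summed to 23.8 to 29.3 against 35.6 to 48.2 RPKM. Most of each sum was Xbp1, at 20.5 to 25.5 RPKM in control and 25.3 to 28.1 RPKM in knockdown libraries. Its groups overlapped and it was not called (limma adjusted p = 0.158). Of the 5 tested, Mzb1, a chaperone of antibody-secreting cells, rose by 2.34 (SE 0.28, limma adjusted p = 0.00924), and 0 fell. Irf4, Slamf7, Pou2af1, Sdc1 and Tnfrsf13b were also higher in every knockdown than in every control library. Only Tnfrsf13b among them reached the filter, and it was not called (limma adjusted p = 0.0508). The groups overlapped for Derl3, Fkbp11, Prdm1 and Tnfrsf17, as for Xbp1. Among 7 genes of the surrogate light chain and of rearrangement, 5 had a row and none reached the filter; their sum was 0.125 to 1.33 RPKM in control and 0.239 to 0.655 RPKM in knockdown libraries. The 9 T cell markers summed to 1.96 to 2.53 against 6.94 to 11.6 RPKM, and the T cell receptor genes Trac and Trbc2 rose by 1.10 and 0.96 (limma adjusted p = 0.0228 and 0.0149). The 5 globin and red cell genes summed to 7.90 to 21.3 in control and 5.55 to 7.08 RPKM in knockdown, with 0 of 3 tested called (limma adjusted p = 0.146 for Hbb-bt and 0.15 for Hba-a1). The part of these cells in the segment reads was not tested.

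Markers of the labelled tissue were abundant: 7 genes of hippocampal neurons summed to 979 to 1317 RPKM and 5 astrocyte genes to 770 to 875 RPKM in every library. Of the 7 neuronal genes 2 were called lower and 0 higher, with a list median of 0.03 on the log2 scale. These were Camk2a and Slc17a7, which fell by 0.34 and 0.64 (limma adjusted p = 0.0348 and 0.0289), while Wfs1, a gene of CA1 neurons named after its values were seen, had a log2 change of 0.63 without overlap of the groups (limma adjusted p = 0.084). Of the 5 astrocyte genes 1 was called lower and 0 higher, with a list median of -0.09. This was the glutamate transporter Slc1a2, which fell by 0.37 (limma adjusted p = 0.0181). Aldoc and Slc1a3 were also lower in every knockdown than in every control library. Their log2 changes were -0.25 and -0.09 (limma adjusted p = 0.14 and 0.325). Gfap and Aqp4 had log2 changes of 0.29 and 0.15, with overlap of the groups (limma adjusted p = 0.224 and 0.444). shControl replicate 1 and shHepaCAM replicate 3 stood apart in 6 choroid plexus markers, at 68.1 and 29.6 RPKM against 1695 to 4285 in the other 4 libraries; of these, Kl and Clic6 had the smallest p (limma adjusted p = 0.67 and 0.678). Without both libraries the summed segment level still differed by 7.38 on the log2 scale and the number of segments by 92.5. Kappa and heavy reads were highest in shHepaCAM replicate 3, and shControl replicate 1 had 15 reads on the segments; the part of choroid plexus content in these reads was not tested. The depth behind the normalization was 14903198 to 17341842 reads in control and 15816576 to 16384937 in knockdown libraries, and thinning every library to the shallowest moved the difference in segments detected from 77.3 to 76.0.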

How the data were processed

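The authors deposited 1 table of RPKM values (reads adjusted for gene length and depth) per library. The submitters' processing notes name Bowtie2 2.0.6, TopHat2 2.0.12 and the mm39 build. Which read counter, annotation, strand setting and multiple-mapping rule they used is not given in the sources used. Groups and replicate numbers came from the library titles.

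Symbols (29805 of 29872 identifiers), gene classes, exon lengths and reference transcripts came from GENCODE M21, whose build differs, so no coordinate is given. Each deposited RPKM value, multiplied by exon length and depth, gave reads: all 147 segments, and 27390 genes (91.9% of those with a length), were within 0.01 of a whole read in all 6 libraries. Counts, shares and floors use these reads.

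Genes averaging 1 RPKM or more were tested on log2(RPKM + 1) with limma 3.58.1 (variance trend, R 4.3.3), with Benjamini-Hochberg adjustment over all 13864 and a threshold of 0.05; this scale understates changes of low genes. Values per library were compared by exact permutation tests. The limma step was tested on simulated data. Segments named are the 3 leading heavy, 3 leading kappa and the leading lambda segment of each library (in controls with at least 3 reads), those called, and those with at least 100 reads in a group; from marker lists, genes called or the 2 with the smallest p. Pseudogenes, Ighv1-69 and untested or uncalled markers outside this rule were named after their values were seen. The members and lists were chosen with earlier results of these data known. Alternatives covered scaling, filters, pseudocount, replicate block, limma-voom on reads, detection level, pseudogenes and leaving out libraries. Figures used matplotlib 3.10.9 in Python 3.11.15.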

Additional observations from a re-analysis of the deposited data

How the results depend on the processing

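The 6 segments called by limma became 3 without the variance trend, 2 with the replicate number as a block and 2 with limma-voom on whole reads, and 2 to 12 with 1 library left out. There were 9 calls with a pseudocount of 0.1, 4 without a filter (2 of them among the 6), 4 with quantile normalization, 5 with scaling to the median gene, 6 with a mean of at least 5 RPKM (5 of them among the 6) and 8 at an adjusted p of 0.1, all higher in knockdown. The replicate block rests on shared numbers only: deviations of same-numbered libraries from their group means correlated at -0.21, 0.02 and -0.14 across genes. As same-numbered differences the summed level still differed by 7.96 (exact sign-flip p = 0.25, the smallest possible). Asking for 3 or 10 reads gave differences of 51.3 and 25.3 segments in place of 77.3, with 61.8 to 93.8 over libraries left out. The leading heavy share differed by -5.15 percentage points, ran from -21.1 to 17.9 over libraries left out, and was positive without shControl replicate 2 (17.9), shHepaCAM replicate 1 (1.5) or shHepaCAM replicate 2 (4.17). Leaving out shControl replicate 1 together with shHepaCAM replicate 3 gave -33.8, an alternative chosen after the data were seen. The leading kappa share differed by 11.0, ran from -2.22 to 25.4, and was negative without shHepaCAM replicate 3. The log2 kappa to heavy ratio differed by 0.29, ran from -0.56 to 1.68 with 1 library left out, and was negative without shControl replicate 1 (-0.56) or replicate 3 (-0.24). With shControl replicate 1 and shHepaCAM replicate 3 both left out, the ratio differed by -0.67. Without the leading segment of each chain it was 2.04 (control mean -1.05 over 2 libraries, knockdown 0.99 over 3; exact permutation p = 0.1, the smallest possible); the cause was not tested. These shares and ratios rest on as few as 1 control read. With 1 library left out the summed level differed by 7.45 to 8.49, and other scalings kept its direction.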
